A study of Homo sapiens with 24 samples.

Results

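The genes described here are A20 (gene symbol TNFAIP3), its binding partners TNIP1, TNIP2 and TNIP3, the ubiquitin ligases BIRC2 and BIRC3, the adaptors TRAF1, TRAF2 and TRAF3, and the deubiquitinase CYLD. They were taken by symbol from a table of normalized read counts, so that 10 of its 38735 named genes are members, and all 10 had a mean above the minimum of 10 set for testing. The RNA came from an established human line of monocytic leukaemia cells, THP-1, and was sequenced after poly-A selection in 24 libraries, 6 in each of 4 groups. Cells of every group, Control included, had first been differentiated with PMA, a phorbol ester, at 100 nM for 24 h. Control cells then had medium only. The DCVC group had 5 µM DCVC for 24 h, the LPS group had 100 ng/mL LPS in fresh medium for 4 h, and the DCVC_LPS group had both agents in that order, at these doses and times. DCVC is dichlorovinyl cysteine, a metabolite of the solvent trichloroethylene, and LPS is a component of the outer membrane of gram-negative bacteria that is sensed by the receptor TLR4. Each group carries libraries lettered A to F, and the labels do not say whether these came from separate cultures, and the p-values given here measure only how far these libraries spread, which may be technical.

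Signalling from TLR4 and from TNF receptors passes through ubiquitin chains that are built on adaptor proteins and read by the kinases that switch on NF-kB. A20 edits and blocks such chains and is itself a classic NF-kB target gene, which makes it a feedback inhibitor. The TNIP proteins, also called ABINs, bind ubiquitin chains and A20. BIRC2 and BIRC3 encode the ligases cIAP1 and cIAP2, which TRAF2 brings to receptor complexes, and TRAF3 with these partners keeps the kinase NIK low and so holds back the noncanonical arm of NF-kB. TRAF1 joins TRAF2 in receptor complexes and lacks the RING domain of the other TRAFs, and CYLD removes lysine-63-linked and linear ubiquitin chains.

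Stretches of sequence before the transcription starts annotated in RefSeq are shown first because the members differ in matches to the NF-kB binding motif, the 10-base kB consensus. All 10 symbols were matched in RefSeq (GRCh38.p14), which gave 18 start-site windows of 300 bases, some of them overlapping. The 250 bases before the start are printed here in the direction of the gene, with kB matches on either strand in capitals, for 4 members with a match and, to show windows without one, for BIRC2, the neighbour of BIRC3, and TRAF1, which had the second largest log2 change of the members with LPS.
TNFAIP3 (chr6:137867009-137867258, plus strand): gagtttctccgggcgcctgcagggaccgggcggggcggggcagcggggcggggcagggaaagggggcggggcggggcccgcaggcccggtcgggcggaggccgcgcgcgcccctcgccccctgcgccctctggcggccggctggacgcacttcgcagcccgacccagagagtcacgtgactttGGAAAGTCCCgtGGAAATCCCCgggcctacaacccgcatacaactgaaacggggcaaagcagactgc
BIRC3 (chr11:102317234-102317483, plus strand): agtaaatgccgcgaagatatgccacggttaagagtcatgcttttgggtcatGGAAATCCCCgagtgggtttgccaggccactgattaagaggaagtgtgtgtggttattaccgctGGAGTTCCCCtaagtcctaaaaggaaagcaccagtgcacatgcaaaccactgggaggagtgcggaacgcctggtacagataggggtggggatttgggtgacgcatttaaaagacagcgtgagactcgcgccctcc
BIRC2 (chr11:102346964-102347213, plus strand): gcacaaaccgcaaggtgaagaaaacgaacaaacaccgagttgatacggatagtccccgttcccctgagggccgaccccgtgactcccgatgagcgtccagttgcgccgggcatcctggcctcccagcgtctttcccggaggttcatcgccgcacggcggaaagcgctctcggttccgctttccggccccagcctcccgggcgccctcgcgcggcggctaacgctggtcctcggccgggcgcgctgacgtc
TRAF1 (chr9:120929172-120929421, minus strand): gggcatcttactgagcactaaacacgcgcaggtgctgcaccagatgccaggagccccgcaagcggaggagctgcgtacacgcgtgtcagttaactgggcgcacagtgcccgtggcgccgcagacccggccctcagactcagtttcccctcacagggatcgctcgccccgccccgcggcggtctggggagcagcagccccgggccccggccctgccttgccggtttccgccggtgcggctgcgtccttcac
TNIP1 (chr5:151081035-151081284, minus strand): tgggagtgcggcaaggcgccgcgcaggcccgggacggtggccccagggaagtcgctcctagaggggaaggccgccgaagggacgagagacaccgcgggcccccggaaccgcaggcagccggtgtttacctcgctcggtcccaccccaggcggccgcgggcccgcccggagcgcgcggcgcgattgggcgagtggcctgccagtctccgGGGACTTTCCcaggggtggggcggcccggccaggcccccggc
TNIP3 (chr4:121227484-121227733, minus strand): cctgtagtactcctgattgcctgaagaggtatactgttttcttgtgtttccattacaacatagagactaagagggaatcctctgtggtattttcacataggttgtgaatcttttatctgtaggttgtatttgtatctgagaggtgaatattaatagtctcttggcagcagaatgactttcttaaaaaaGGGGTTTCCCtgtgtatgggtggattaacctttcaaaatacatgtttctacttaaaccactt
TNIP3, a start inside the gene (chr4:121164322-121164571, minus strand): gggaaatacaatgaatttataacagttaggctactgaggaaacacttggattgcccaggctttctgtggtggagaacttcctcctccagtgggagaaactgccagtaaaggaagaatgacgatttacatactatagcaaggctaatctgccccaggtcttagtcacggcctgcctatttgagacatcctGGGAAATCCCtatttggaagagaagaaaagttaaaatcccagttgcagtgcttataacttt

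A kB match was present in 8 of the 18 windows, against 5.91% of all 35116 windows of this length. These windows belonged to 6 of the 10 members, for which no share per gene was computed over all genes. TNFAIP3 had a pair of matches, at -67 and -55 from its start, and BIRC3 a pair at -199 and -135. TNIP1 had one at -42, the windows of TNIP3 printed above had one each at -62 and -61, and TRAF3 had GGGGATTTCC at -33. The sixth member with a match was CYLD. The windows of TNIP2, BIRC2, TRAF1 and TRAF2 held no match, which says only that these letters are not there. The AP-1 motif TGANTCA was in 1 of the 18 windows, at TNIP3, against 7.71% of all windows. The core of the antioxidant response element, TGACNNNGC, was in 1, at CYLD, against 13.3%. Both strands were searched, no other motif was sought, and a match is a description of the letters and not a bound site.

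The genes lie on 7 chromosomes (GENCODE 29, GRCh38). BIRC3 (chr11:102317450-102339403) and BIRC2 (chr11:102347211-102378670) are neighbours on the plus strand, 7807 bases apart. TNFAIP3 (chr6:137867188-137883312) and CYLD (chr16:50742050-50801935) share exonic sequence with antisense genes. The strand setting of the counting is not given in the sources used here, so reads of these partners cannot be told apart from theirs. Reads recovered from the normalized counts ran from 18478618 to 27986524 per library over 23 libraries. LPS letter A was left out because 1 read in it stood for 0.991 normalized counts, too close to 1 to be accepted. The totals of the normalized counts differed between groups, from 17774466 ± 305501 (SD, n = 6) in DCVC to 29427331 ± 839114 in LPS. Setting all libraries to equal totals moved the median log2 change of all tested genes by -0.47 in LPS minus Control, 0.25 in DCVC minus Control, 0.43 in DCVC_LPS minus LPS, -0.29 in DCVC_LPS minus DCVC and 0.18 in the interaction, and member calls that this scaling changes are named with each comparison. Of the macrophage markers CSF1R, TYROBP, ITGAX, SPI1 and LYZ were present in all 24 libraries, while CD68 averaged only 5.28 to 25.5 and CD14 averaged 2520 in Control and 30.4 in DCVC_LPS. Of the markers of other cells, the T cell gene CD2 was at 0 in all 24 libraries, CD3E in 22, the B cell gene MS4A1 in 21 and the epithelial gene EPCAM in 22. TRAC, PECAM1, VWF and COL1A1 were present in every library. Summed levels moved with the groups: the 10 macrophage markers summed to between 67923 and 82617 in Control libraries, 52930.2 and 60479 in DCVC, 40298 and 42396 in LPS, and 42634 and 46512 in DCVC_LPS. The 4 T cell markers, nearly all TRAC, had sums of 1964 to 2525, 1377 to 1880.0, 127 to 324 and 176 to 331 in the same order of groups. Those of the 3 endothelial markers, mostly PECAM1, were 4552 to 7440.0, 2096 to 2931, 1430 to 2150.2 and 1020.2 to 1504. The 3 B cell markers stayed at 3.58 to 33.8, the 3 epithelial ones at 0 to 1.67 and the 3 fibroblast ones, mostly COL1A1, at 13.8 to 69.8. The macrophage markers did not all move with their sum, of which CSF1R was the largest part in Control (mean 32211, against 9693 in LPS). ITGAM, ITGAX, CSF1R, TYROBP, AIF1 and CD14 averaged below Control in every other group. CD68, LYZ and FCGR2A averaged above it, LYZ at 1455 in Control and 3716 in DCVC_LPS. SPI1 was below Control in DCVC and LPS and above it in DCVC_LPS (8701 against 6967). The part of these shifts in the results was not tested.

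Control libraries E and F lay below the other 4 in most members: TNFAIP3, TNIP1, TNIP2, BIRC3, TRAF1, TRAF2 and TRAF3. Values within the letter pairs A and B, C and D, and E and F are therefore given for the members most affected. With letters A to D alone, 10 members rose in LPS against Control, beside 36.6% of all tested genes. In DCVC against Control 1 rose and 6 fell (TNIP1 being added, at -0.24), beside 26.3% and 31.2%. In DCVC_LPS against LPS 9 fell (without TNIP3), beside 38.7%, and in DCVC_LPS against DCVC 10 rose, beside 27.6%. The interaction was called negative for 6, beside 22.8%.

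Per kilobase of exon, the order of the members turned over between the groups. In Control the highest were TNIP2 (345 ± 66.9 normalized counts per kilobase, SD, n = 6) and TNIP1 (318 ± 37.5), and the lowest were BIRC3 (8.43 ± 5.03) and TNIP3 (0.31 ± 0.24). In LPS the highest was TRAF1, at 15583 ± 1343, followed by TNFAIP3 at 9028 ± 849 and TNIP1 at 8846 ± 916. TNIP3 remained the lowest in LPS, at 143 ± 71.4. TRAF1 was also the highest in DCVC_LPS, at 5186 ± 658. Of the 10 members, 8 had the order DCVC, Control, DCVC_LPS, LPS from lowest to highest mean, and for TNIP2 and TNIP3 Control lay below DCVC. Ranges of the Control and DCVC libraries overlapped for all members but TNFAIP3 and TNIP3, and those of Control and DCVC_LPS overlapped for TRAF2. All other neighbouring groups in these orders were apart.

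**Figure D1:**
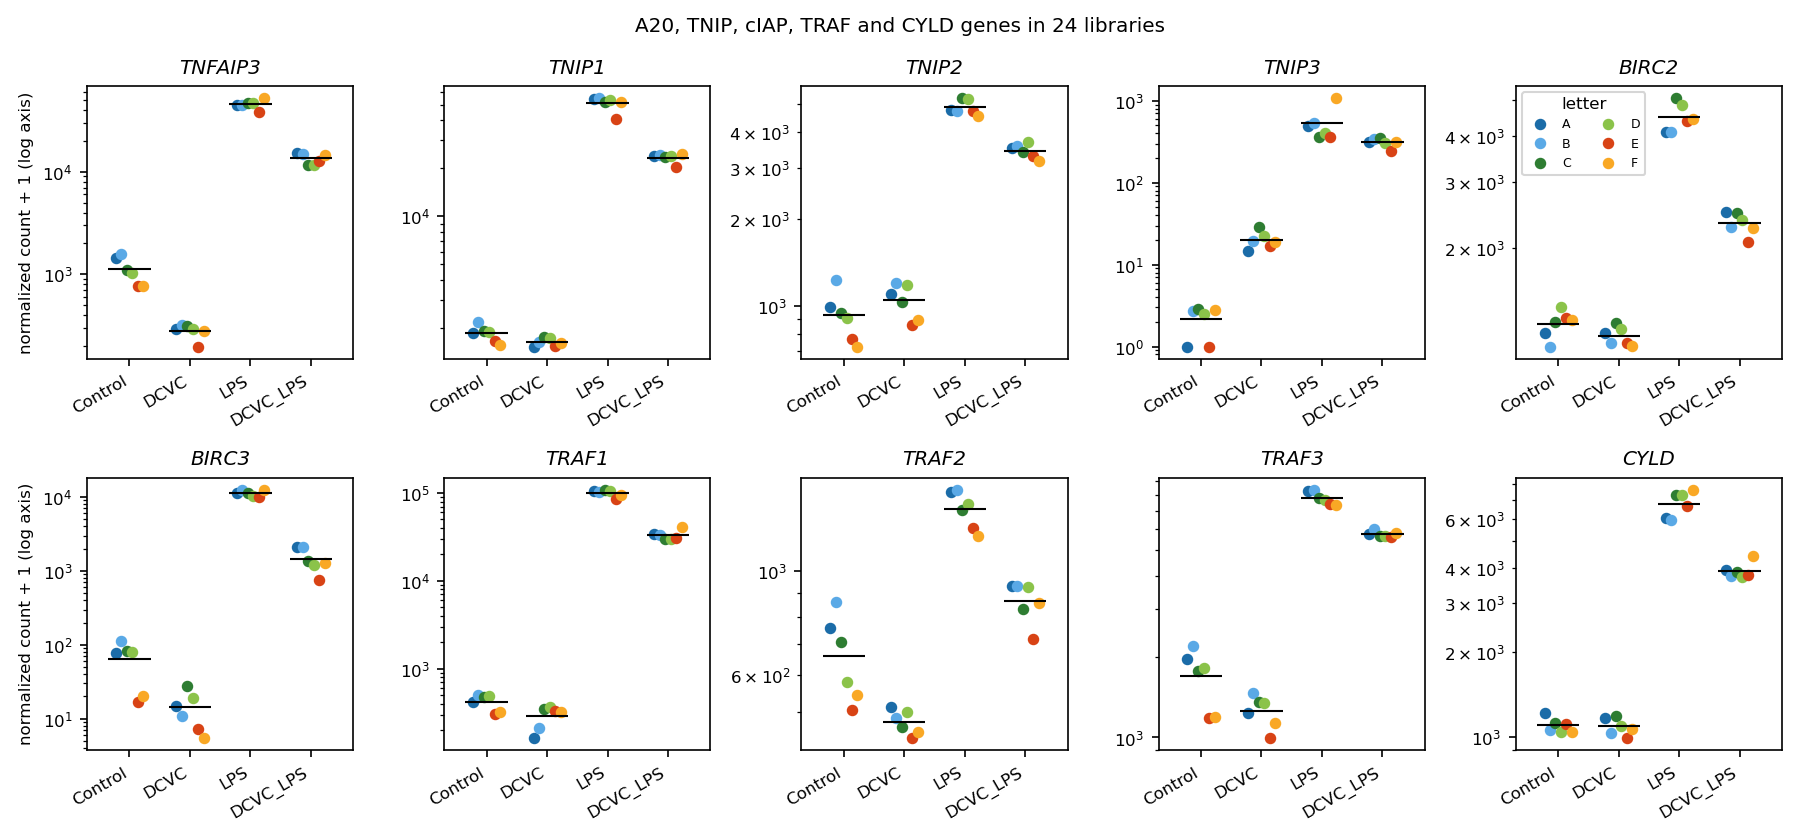
Normalized count plus 1 (log axis) of each of the 10 genes in the 24 libraries, in 4 groups of 6, coloured by library letter; horizontal lines are group means. The LPS libraries lie above all Control libraries in every panel, and the DCVC_LPS libraries lie below all LPS libraries.

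The first comparison, LPS against Control, asks how these genes responded to LPS alone. All 10 members rose, with group ranges that did not overlap, from 2.06-fold for TRAF2 to 465-fold for TNIP3 (ratio of group means). Ranges were apart and higher with LPS in 28.7% of all tested genes. The adaptor TRAF1, the partner TNIP3 and the ligase BIRC3 rose most, followed by A20 itself and TNIP1. Among all 13900 genes tested, 37.8% were raised and 40.6% were lowered in this comparison (limma, Benjamini-Hochberg adjusted p under 0.05), and 22.4% and 59.5% with equal totals. The median log2 change was 3.71 over the members and -0.03 over all tested genes. All cells of a library were lysed together, so a change in RNA per cell cannot be told apart from a change in the share of cells that carry it.

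Normalized counts of TNFAIP3 ran from 763 to 1582 in Control, with a median of 1075, and from 38482 to 51749 in LPS, with a median of 45820. Every LPS library was thus far above every Control library, and the 2 lowest Control values came from letters E and F. The log2 change of TNFAIP3 was 5.40 ± 0.15 (SE; limma adjusted p = 4.00e-20), and 4.90, 5.44 and 5.87 within letters A and B, C and D, and E and F.

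Its partner TNIP1 was at 1564 to 2185 in Control, with a median of 1868, and at 40672 to 54837 in LPS, with a median of 53042. The lowest LPS value, from letter E, was still far above all Control values. TNIP1 rose by 4.80 ± 0.08 on the log2 scale (limma adjusted p = 1.08e-24). TNIP2, which had the highest level per kilobase in Control, rose by a smaller amount, 2.41 ± 0.10 (adjusted p = 7.19e-17), from a mean of 925 ± 180 to 4861 ± 277.

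TNIP3 was close to silent in Control, with 0 to 1.89 normalized counts per library and 8 reads over the 6 libraries, 2 of which had none. In LPS it was at 359 to 1068, with a median of 449.9, and the highest value, from letter F, stood well above the other 5. Its log2 change was 7.99 ± 0.28 (limma adjusted p = 3.14e-18), which was the rank 31 from the top of the 13900 genes. With so few reads in Control the size of this change depends on the pseudocount: it was 8.52 with 0.5 added and 6.36 with 5 added in place of 1. Within the letter pairs it was 8.29, 7.16 and 8.53.

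The ligase genes, neighbours on chromosome 11, differed in size of response. BIRC3 was at 15.6 to 110 in Control, with a median of 77.0, and at 9944 to 12488 in LPS, with a median of 11419. Letters E and F gave the low Control values, 15.6 and 19.0, and the other 4 Control libraries lay at 75.7 or above. BIRC3 rose by 7.78 ± 0.42 on the log2 scale (limma adjusted p = 1.02e-14), and by 7.01, 7.07 and 9.24 within letters A and B, C and D, and E and F. BIRC2 rose by 1.85 ± 0.06 (adjusted p = 3.10e-18), from 1247 ± 104 to 4489 ± 387 normalized counts.

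Among the adaptors, TRAF1 had 308 to 501 normalized counts in Control, with a median of 449, and 86008 to 108451 in LPS, with a median of 103624. No library of either group came near the other group. Its log2 change was 7.92 ± 0.16 (limma adjusted p = 1.98e-22), the rank 34 from the top. TRAF3 rose by 2.25 ± 0.12 (adjusted p = 8.53e-15), from 1686 ± 415 to 7796 ± 424. TRAF2, the adaptor that recruits the ligases, had the smallest change of the members, 1.06 ± 0.10 (adjusted p = 1.02e-09), from 658 ± 138 to 1357 ± 125. CYLD rose by 2.63 ± 0.07 (adjusted p = 7.35e-21), from 1097 ± 67.3 to 6796 ± 702.

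**Figure D2:**
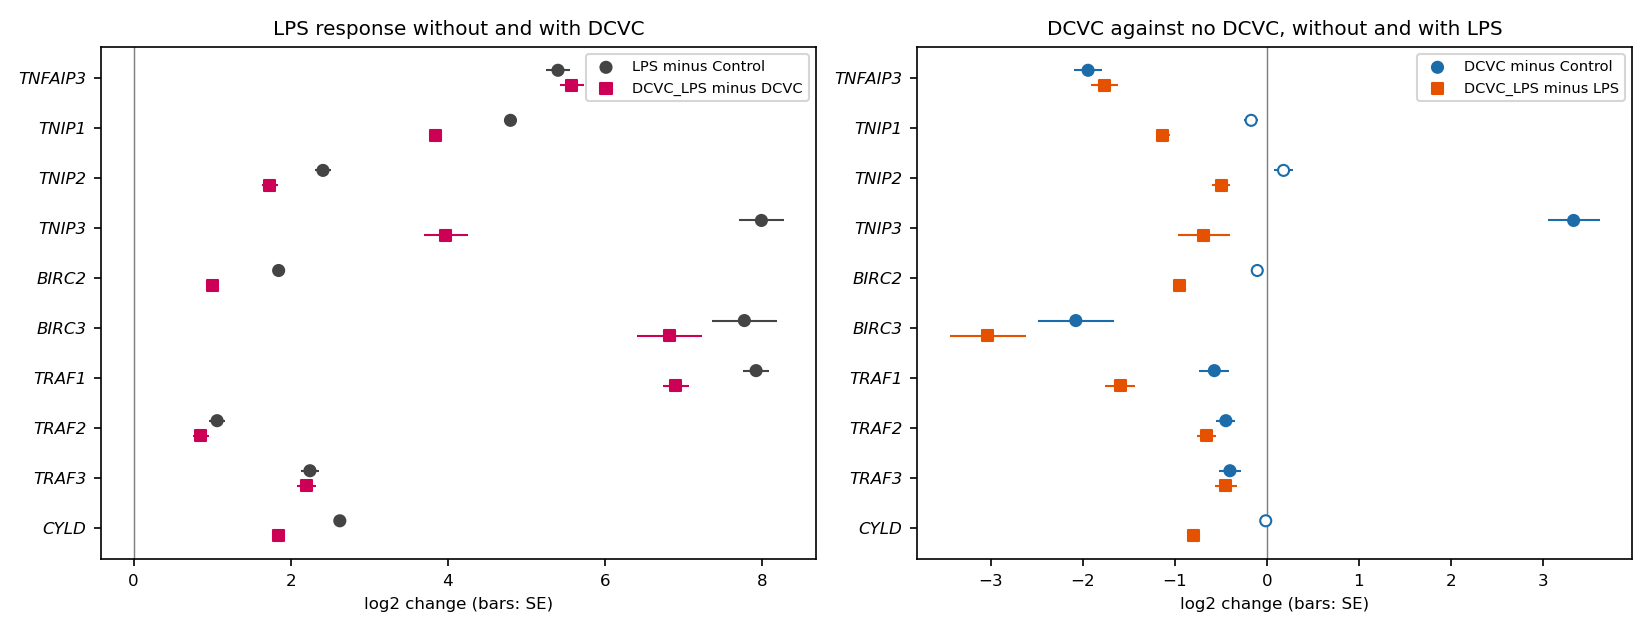
Log2 change of each gene (x axis, with SE bars) in 4 comparisons; the left panel shows LPS against no LPS without and with DCVC, the right panel DCVC against no DCVC without and with LPS, and filled symbols passed an adjusted p of 0.05. The left panel shows all 10 genes to the right of 0; the right panel shows all 10 to the left of 0 in LPS-treated cells and TNIP3 alone far to the right of 0 in cells without LPS.

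DCVC against Control asks what DCVC did without LPS. TNFAIP3 fell to 282 ± 44.2 normalized counts from 1115 ± 337, BIRC3 fell to 13.2 ± 8.32 from 63.4 ± 37.8, and TNIP3 rose to 19.1 ± 4.84 from 1.16 ± 0.90. The adaptors TRAF1, TRAF2 and TRAF3 fell by less. TNIP1, TNIP2, BIRC2 and CYLD did not pass the test. So 1 member was raised and 5 were lowered, where 27.5% of all tested genes were raised and 32.2% lowered (46.1% and 20.1% with equal totals). On the deposited scale the members raised were below that share and those lowered above it, by a few genes of 10. With equal totals 4 members were raised and 2 lowered, close to the shares of all tested genes on that scale. Group ranges were apart and higher in 16.6% and lower in 19.8% of tested genes, and in 1 member each, TNIP3 and TNFAIP3.

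A20 had the smallest adjusted p of the lowered members. TNFAIP3 ran from 197 to 322 in DCVC, with a median of 290.2, against 763 to 1582 in Control. Its ranges did not overlap and its log2 change was -1.94 ± 0.15 (limma adjusted p = 9.75e-11), with -2.29, -1.83 and -1.70 within letters A and B, C and D, and E and F.

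TNIP3 moved the other way. It was at 13.6 to 27.6 in DCVC, with a median of 18.2, from 129 reads over the 6 libraries against 8 in Control. Every DCVC library was above every Control library. The log2 change was 3.33 ± 0.28 (limma adjusted p = 4.91e-10), the rank 34 from the top of all tested genes. It was 3.36, 3.22 and 3.42 within the letter pairs in the same order, and 3.82 or 1.96 with 0.5 or 5 added in place of 1.

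BIRC3 was lower in DCVC at every letter, at 4.46 to 26.8 with a median of 11.7. Its group ranges overlapped, because Control letters E and F lay within the range of DCVC. The change was -2.07 ± 0.42 on the log2 scale (limma adjusted p = 1.49e-04), and -2.88, -1.81 and -1.54 within the letter pairs. For BIRC2, the other ligase, the change was -0.10 ± 0.07 (adjusted p = 0.172), from 1247 ± 104 to 1158 ± 67.1, and its sign turned to 0.15 with equal totals.

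TRAF1 had 162 to 370 normalized counts in DCVC, with a median of 323, against 308 to 501 in Control. DCVC letters A and B were far below their Control partners, letters C and D were somewhat below, and letters E and F were just above them. The log2 change of TRAF1 was -0.57 ± 0.16 (limma adjusted p = 0.00423), made up of -1.32 and -0.44 within A and B and C and D, and 0.05 within E and F (adjusted p = 0.796). TRAF2 changed by -0.44 ± 0.10 (adjusted p = 6.98e-04) and TRAF3 by -0.40 ± 0.12 (adjusted p = 0.00561). Within letters E and F these were -0.23 (adjusted p = 0.124) and -0.16 (adjusted p = 0.148).

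CYLD was nearly level, at -0.01 ± 0.07 (limma adjusted p = 0.888), with 1097 ± 67.3 in Control and 1088 ± 77.0 in DCVC. TNIP1 stood at 1842 ± 217 and 1630 ± 95.3, a log2 change of -0.17 ± 0.08 (adjusted p = 0.0609), and TNIP2 at 925 ± 180 and 1043 ± 146, a change of 0.18 ± 0.10 (adjusted p = 0.120). With the letter as a replicate block TNIP1 passed as lowered (adjusted p = 0.0113) and TNIP2 as raised (adjusted p = 0.0263), so that 2 members were raised and 6 lowered. Within the letter pairs TNIP1 changed by -0.36 (adjusted p = 6.02e-04), -0.12 (0.0377) and -0.03 (0.864). TNIP1 also passed without Control replicate E, Control replicate F, DCVC replicate C or LPS replicate E (adjusted p from 0.0182 to 0.0487), and TNIP2 without Control replicate B or DCVC replicate E (0.0127 and 0.0467). With equal totals the calls were 4 raised (TNIP2, TNIP3, BIRC2 and CYLD) and 2 lowered (TNFAIP3 and BIRC3), and TRAF1, TRAF2 and TRAF3 had changes of -0.32, -0.20 and -0.15 that did not pass (adjusted p = 0.0860, 0.0911 and 0.260).

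DCVC_LPS against LPS asks whether DCVC before LPS altered the levels reached with LPS. All 10 members were lower with DCVC, and in each the 6 DCVC_LPS libraries lay below all 6 LPS libraries, as they did in 29.4% of all tested genes. BIRC3 fell most, to 12.8 ± 4.08% of the LPS library of the same letter (SD, n = 6), followed by TNFAIP3 at 29.7 ± 4.24% and TRAF1 at 33.6 ± 5.80%. TRAF3 and TNIP2 kept most of their level, at 73.5 ± 3.15% and 70.9 ± 3.60%. Of all tested genes 33.3% were raised and 39.4% lowered in this comparison (limma), and 54.5% and 21.9% with equal totals. The median log2 change was -0.87 over the members and -0.07 over all tested genes, and with equal totals -0.44 and 0.36.

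TNFAIP3 was at 11595 to 15132 in DCVC_LPS, with a median of 13697, against 38482 to 51749 in LPS. The lowest of these libraries, letters C and D, and the highest, letters A and B, were both well below LPS. The log2 change was -1.76 ± 0.15 (limma adjusted p = 1.56e-10).

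TNIP1 was at 20320 to 24725, with a median of 23777, and letter E was the lowest in DCVC_LPS as it was in LPS. It fell by 1.13 ± 0.08 on the log2 scale (limma adjusted p = 3.84e-12), to 45.8 ± 2.52% of LPS. For TNIP2 the fall was 0.50 ± 0.10 (adjusted p = 9.48e-05), and with equal totals the change was -0.07 (adjusted p = 0.538).

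TNIP3 was at 244 to 354 in DCVC_LPS, with a median of 310.5, against 359 to 1068 in LPS. The ranges were apart by a narrow margin, between 354 and 359, and as a share of LPS the letters ran from 29.0% at F to 97.3% at C. The log2 change was -0.69 ± 0.28 (limma adjusted p = 0.0320). The call was not kept without LPS replicate F, the high library (-0.47, limma adjusted p = 0.113). Nor was it kept without LPS replicate B or DCVC_LPS replicate E (adjusted p = 0.0520 and 0.0674). Leaving out letter B, D or F in all groups also lost it (adjusted p = 0.0633, 0.0544 and 0.137), as did letters A to D alone (0.168). So did equal totals (-0.26, adjusted p = 0.428), a pseudocount of 0.5 (0.0867) and no filter on low values (0.0503). It did not pass within any letter pair (adjusted p from 0.110 to 0.332). Of 45 alternatives, 32 kept the call.

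BIRC3 was at 753 to 2106 in DCVC_LPS, with a median of 1319, against 9944 to 12488 in LPS. Letters A and B were the highest with DCVC and letter E the lowest, and none came near the LPS range. The log2 change was -3.03 ± 0.42 (limma adjusted p = 5.35e-07), the rank 268 from the bottom of all tested genes. BIRC2 fell by 0.95 ± 0.07 (adjusted p = 4.13e-12), from 4489 ± 387 to 2328 ± 159.

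TRAF1 was at 30278 to 41408, with a median of 32181, and letter F stood above the other 5. It fell by 1.59 ± 0.16 on the log2 scale (limma adjusted p = 4.67e-09). TRAF2 fell by 0.65 ± 0.10 (adjusted p = 4.49e-06), from 1357 ± 125 to 864 ± 84.2. TRAF3 fell by 0.45 ± 0.12 (adjusted p = 0.00174), and with equal totals its change was -0.02 (adjusted p = 0.910). CYLD fell by 0.79 ± 0.07 (adjusted p = 1.20e-10), from 6796 ± 702 to 3909 ± 264. With equal totals 7 members were therefore lowered, TNIP2, TNIP3 and TRAF3 being the ones that lost the call.

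DCVC_LPS against DCVC gives the LPS response in cells that had seen DCVC. All 10 members rose here too, with no overlap of the groups (as in 22.1% of all tested genes), beside 29.9% of all tested genes raised and 32.2% lowered (limma; 16.3% and 52.7% with equal totals). This comparison shares its DCVC_LPS libraries with the one before and its DCVC libraries with DCVC against Control, so the 4 comparisons are not independent. TRAF1 rose by 6.90 ± 0.16 and BIRC3 by 6.82 ± 0.42 on the log2 scale, which are ranks 17 and 19 from the top of all tested genes. Within the letter pairs BIRC3 rose by 7.38, 5.78 and 7.29, and TRAF1 by 7.52, 6.40 and 6.79. TNFAIP3 rose by 5.58 ± 0.15 (adjusted p = 6.47e-20), rank 42, a 47.8-fold ratio of means. TNIP3 rose 16.2-fold from its raised DCVC level, and TNIP1 14.3-fold.

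The interaction, the LPS response with DCVC minus the LPS response without it, tests whether these responses differed. It passed the test as negative for 6 members, TNIP1, TNIP2, TNIP3, BIRC2, TRAF1 and CYLD, and as positive for none, beside 22.0% of all tested genes called positive and 23.7% called negative (limma; 33.1% and 16.1% with equal totals). TNIP3 had the largest, -4.02 ± 0.40 on the log2 scale (adjusted p = 2.13e-08), rank 49 from the bottom. It rose in DCVC without LPS and was somewhat lower in DCVC_LPS than in LPS. With 0.5 or 5 added in place of 1 the value was -4.51 or -2.64.

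TNIP1 had an interaction of -0.96 ± 0.11 (limma adjusted p = 1.83e-07), CYLD of -0.78 ± 0.09 (adjusted p = 3.62e-07) and BIRC2 of -0.84 ± 0.09 (adjusted p = 9.66e-08). For TNIP2 the interaction was -0.68 ± 0.14 (adjusted p = 3.71e-04). TNIP1, TNIP2, BIRC2 and CYLD had not passed the test in DCVC against Control. For TRAF1 the interaction was -1.02 ± 0.23 (adjusted p = 8.42e-04), with -0.30 within letters A and B (adjusted p = 0.0967) and -1.38 within each of the other letter pairs.

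TNFAIP3, lowered by DCVC both with and without LPS, had an interaction of 0.18 ± 0.21 (limma adjusted p = 0.524). Its values were 0.72 within letters A and B (adjusted p = 2.85e-05), -0.17 within C and D and -0.01 within E and F, so the letter pairs differed in sign. BIRC3 had -0.96 ± 0.59 (adjusted p = 0.192), a wide error, with 0.37 within A and B, -1.29 within C and D (adjusted p = 3.52e-05) and -1.95 within E and F (adjusted p = 0.00957). It passed with 5 added in place of 1 (-1.26, adjusted p = 0.0464) and with the letter pair as a block (adjusted p = 0.0495). TRAF2 and TRAF3 had -0.21 ± 0.15 and -0.05 ± 0.17 (adjusted p = 0.261 and 0.855), and a p that misses the threshold does not show that the responses were alike. The 6 calls were also made with equal totals.

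Ratios between related members within each library do not depend on how libraries are scaled. They are given without a test because the pairs were chosen after values had been seen. BIRC3 to BIRC2, per kilobase, was 0.032 ± 0.020 (SD, n = 6) in Control and 0.007 ± 0.004 in DCVC, against 1.53 ± 0.22 with LPS alone and 0.376 ± 0.129 with DCVC and LPS. The inducible ligase thus exceeded its neighbour in all 6 LPS libraries, where the lowest ratio was 1.28, and in none of the DCVC_LPS libraries, where the highest was 0.559. TRAF1 to TRAF2 was 0.365 ± 0.061, 0.348 ± 0.108, 42.2 ± 2.87 and 22.1 ± 3.28 in the same order of groups. TNIP1 to TNIP2 was 0.934 ± 0.071, 0.735 ± 0.096, 4.90 ± 0.53 and 3.15 ± 0.26 in the same order. TNFAIP3 to CYLD, a pair of chain-removing enzymes, was 2.60 ± 0.77, 0.663 ± 0.093, 17.3 ± 1.74 and 8.84 ± 1.04. In all 4 pairs the DCVC_LPS libraries lay below the LPS libraries and above the Control libraries.

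**Figure D3:**
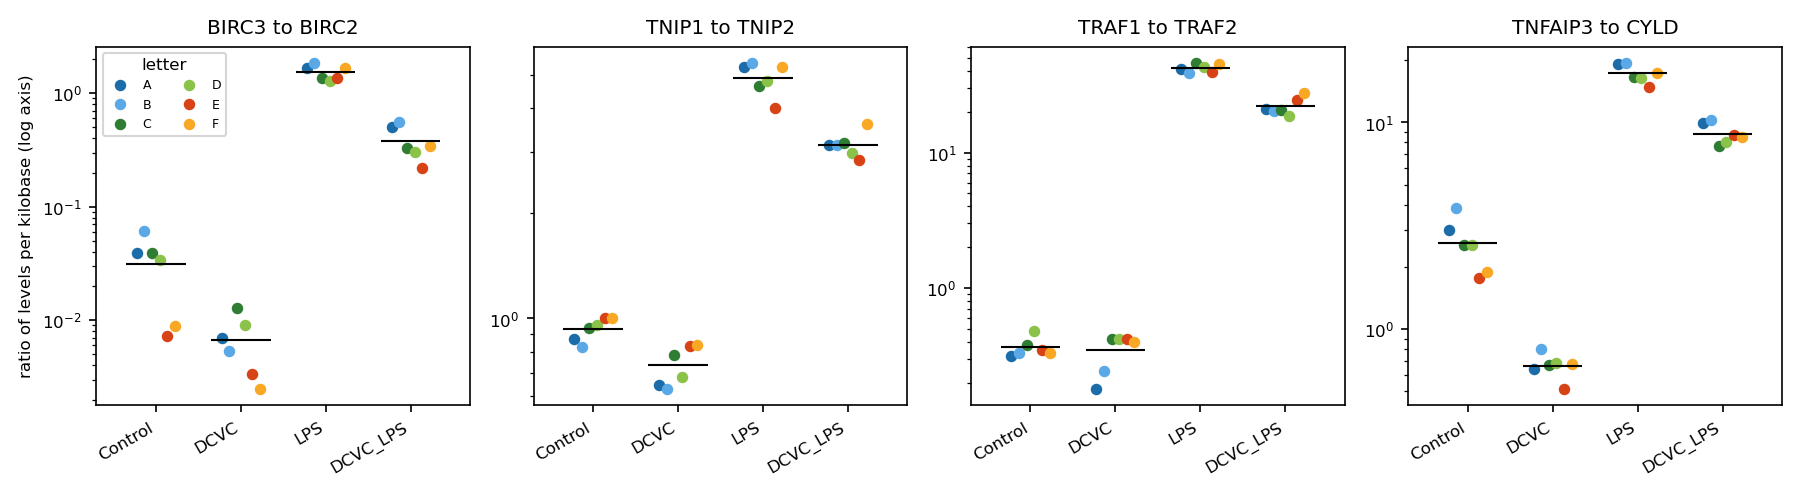
Ratio of levels per kilobase (log axis) between 4 pairs of genes within each of the 24 libraries, by group and coloured by letter; horizontal lines are group means. BIRC3 to BIRC2 is above 1 in all 6 LPS libraries and below 1 in all libraries of the other 3 groups.

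Genes with the pattern most like a member's had the smallest root mean square difference over the 24 libraries, in log2 values relative to the Control mean. The search covered 9257 genes with a mean of 50 or more. Names typical of antisense genes, clone-named and LINC genes, and pseudogenes were left out by their letters. This also dropped coding genes whose names end in P, in P and digits, or in L and digits. Chemokine genes such as CXCL8 and CCL3 and the TNIP genes were thus not searched, so a closer gene may exist. For TNFAIP3 they were MIR3142HG (0.38), NFKBIZ (0.40) and TNFRSF9 (0.46), and its nearest member was TNIP1 (0.96). TRAF1 had ADORA2A (0.53) and SOD2 (0.55) nearest, and BIRC3 had IL18R1 (0.67), LIF (0.68) and TNF (0.71). TNIP3 was less closely matched. CD274 was nearest at 0.87, with log2 changes of 7.42 in LPS minus Control and 2.34 in DCVC minus Control, and the nearest member, TRAF1, was at 2.06. These distances are descriptions over the same libraries.

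Around the members, 56 other genes of the pathway were listed and all were tested. In LPS against Control 34 rose and 15 fell, with a median log2 change of 0.41, while 10 of the 10 members rose. In DCVC against Control 9 rose and 27 fell, and in DCVC_LPS against LPS 10 rose and 31 fell, with a median of -0.39. The interaction was called positive for 4 and negative for 22. These splits depend on the scale. With equal totals 21 rose and 26 fell in LPS against Control, and 21 rose and 16 fell in DCVC against Control. In DCVC_LPS against LPS 24 rose and 18 fell, and the interaction was positive for 12 and negative for 16. Of all tested genes, 37.8% rose and 40.6% fell in LPS against Control on the deposited scale (22.4% and 59.5% with equal totals). In DCVC against Control the shares were 27.5% and 32.2% (46.1% and 20.1%), and in DCVC_LPS against LPS 33.3% and 39.4% (54.5% and 21.9%). The interaction was positive in 22.0% and negative in 23.7% (33.1% and 16.1%). These shares are the background of the shorter lists below as well.

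Of the 3 partners of A20 in its editing complex, the ligase ITCH rose by 0.77 ± 0.06 with LPS (limma adjusted p = 1.04e-11), RNF11 rose by 0.40 ± 0.06 (adjusted p = 3.18e-06) and TAX1BP1 did not pass. ITCH and RNF11 fell in DCVC_LPS against LPS, with changes of -0.58 and -0.52, while TAX1BP1 rose by 0.27 ± 0.09 (adjusted p = 0.00937). With equal totals RNF11 did not pass in either comparison, at -0.08 and -0.09 (adjusted p = 0.200 and 0.147), and TAX1BP1 passed as lowered with LPS, at -0.40 (adjusted p = 2.03e-04). Among the 5 genes of the linear-chain assembly complex LUBAC and its regulators, 3 rose and 1 fell with LPS (2 and 2 with equal totals). SPATA2, which links CYLD to that complex, rose by 1.24 ± 0.08 with LPS and by 0.66 ± 0.08 with DCVC alone. SHARPIN, a LUBAC subunit, fell by 0.85 ± 0.06 with LPS.

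Among 16 other deubiquitinases 10 rose and 4 fell with LPS, and 5 rose and 10 fell when totals were made equal. USP18, an interferon-induced ISG15 protease, rose by 2.95 ± 0.33 (limma adjusted p = 1.08e-08) and OTUD1 by 2.89 ± 0.18 (adjusted p = 3.08e-13). In DCVC_LPS against LPS 3 of the 16 rose and 7 fell, but 10 rose and 4 fell with equal totals. The genes that rose on the deposited scale were USP11 (0.58), STAMBP (0.39) and OTUD5 (0.33), named after their values were seen. USP18 and OTUD1 had the largest falls, with changes of -3.86 ± 0.33 for USP18, from 2060 ± 483 to 181 ± 164 normalized counts, and -2.97 ± 0.18 for OTUD1. Both also fell in DCVC against Control, with changes of -2.04 and -1.33. OTUD4 rose by 2.24 ± 0.08 with LPS and changed by -0.93 ± 0.08 in DCVC_LPS against LPS.

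In the 15 genes of TNF receptor complexes and their cell death arm, 9 rose and 5 fell with LPS (6 and 6 with equal totals), and 2 rose and 9 fell in DCVC_LPS against LPS (5 and 7). CFLAR, the caspase-8 inhibitor cFLIP, rose by 4.35 ± 0.12 with LPS (limma adjusted p = 3.17e-20) and fell to 6956 ± 971 from 25717 ± 2341 normalized counts in DCVC_LPS against LPS. FADD, the adaptor that recruits caspase-8, fell by 1.76 ± 0.07 with LPS. MLKL, the effector of necroptosis, changed by -1.75 ± 0.20 in DCVC_LPS against LPS (adjusted p = 3.13e-08) and CASP10 by -1.69 ± 0.10. Both had negative interactions, -1.95 ± 0.28 and -1.73 ± 0.14.

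The noncanonical arm held by TRAF3 and the cIAPs had 3 of 5 genes raised and 1 lowered by LPS (3 and 2 with equal totals). CD40, a receptor that signals through TRAFs, rose by 4.99 ± 0.16 (limma adjusted p = 8.00e-19), NFKB2 by 3.80 ± 0.12 and RELB by 3.25 ± 0.19. In DCVC_LPS against LPS 3 of the 5 fell and none rose (with equal totals 3 fell and MAP3K14, the gene of NIK, rose by 0.67, adjusted p = 6.89e-05). On the deposited scale CD40 fell by 1.99 ± 0.16, NFKB2 by 0.83 ± 0.12 and the receptor LTBR by 0.68 ± 0.07. Of the 6 adaptors of the kinases TBK1 and IKKE, with the kinases included, 4 rose and 2 fell with LPS (3 and 2 with equal totals). OPTN, a ubiquitin-binding adaptor, rose by 2.20 ± 0.13 and TANK by 1.65 ± 0.09, and 5 of the 6 fell in DCVC_LPS against LPS (2 fell and 1 rose with equal totals). Of 6 other TRAFs and TRAF3-interacting proteins, 3 rose and 2 fell with LPS (1 and 3 with equal totals). TRAF3IP2, an adaptor of the IL-17 receptor, rose by 2.54 ± 0.16, and TRAF3IP3 had a change of -3.00 ± 0.21 with LPS and of 1.49 ± 0.21 in DCVC_LPS against LPS (adjusted p = 6.02e-07).

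**Figure D4:**
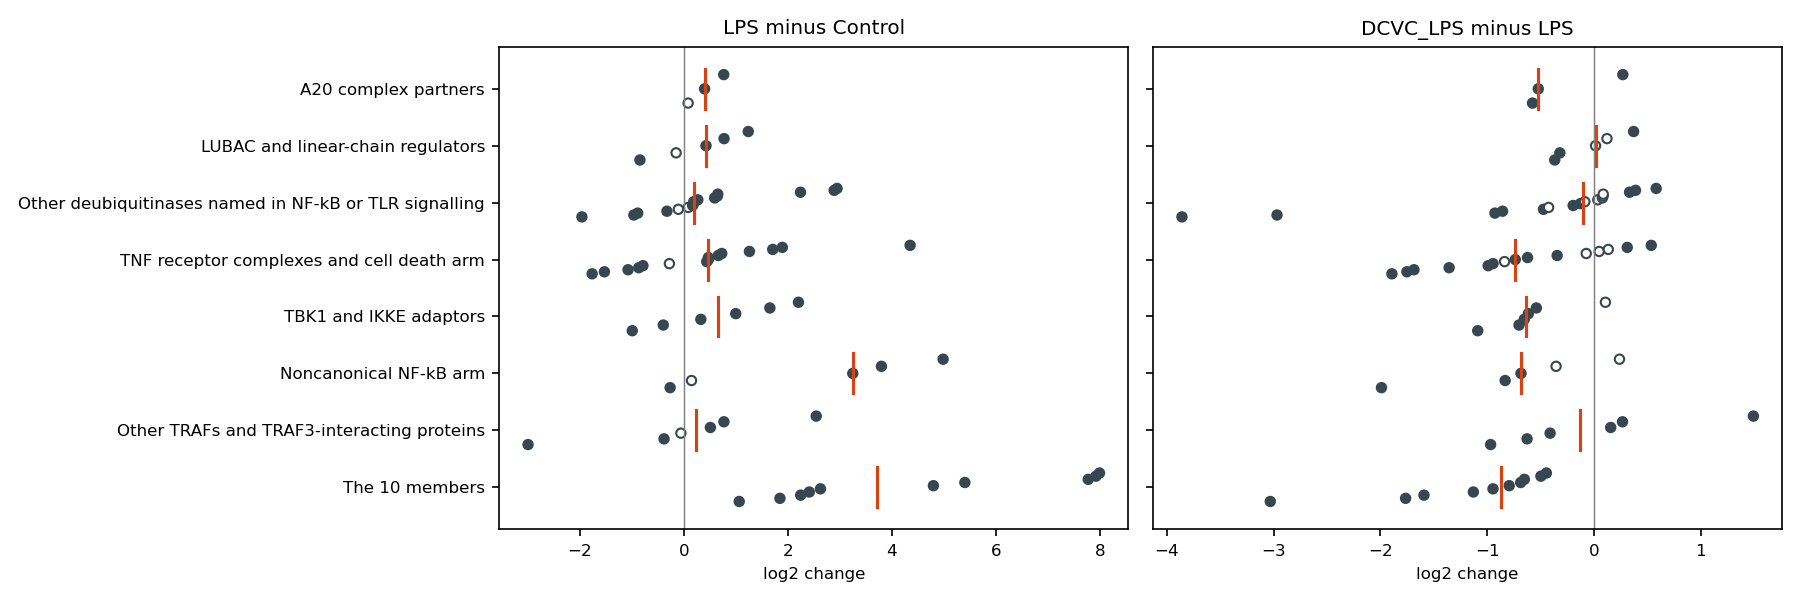
Log2 change (x axis) of each gene of 7 pathway lists and of the 10 members in LPS minus Control (left) and DCVC_LPS minus LPS (right); filled circles passed an adjusted p of 0.05, and vertical bars are list medians. The 10 members lie to the right of 0 on the left panel and to the left of 0 on the right panel. Every other list except the partners of A20 has filled circles on both sides in LPS minus Control. In DCVC_LPS minus LPS the TBK1 and IKKE list and the noncanonical list also have filled circles only to the left of 0.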

How the data were processed

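Poly-A RNA of differentiated THP-1 cells was measured in 24 libraries, 4 groups of 6, grouped by the labels. The deposited values are a signal, counts that the authors normalized by dividing reads by a library factor. This was read from the values, of which 100% in each library were a whole number of reads times one step (tolerance 0.1 read). Per the submitters' processing notes, which give no roles, the build was hg38 and the tools were STAR, featureCounts 1.6.1, DESeq2 1.24.0 under R 3.6.0, and for quality MultiQC 0.9 and FastQC 0.11.5. For strand setting, annotation and reads with several hits, the choices are not given in the sources used. Of 58381 entries, 19595 without a name (0.986% of the summed values) were left out, and 51 repeated symbols were summed.

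limma 3.58.1 (R 4.3.3, trended empirical Bayes) was fitted to log2(value + 1), which understates changes of low genes, for 13900 genes with a mean of at least 10, all 24 libraries in 1 fit with 20 residual degrees of freedom. Calls were made at a Benjamini-Hochberg adjusted p under 0.05 over all tested genes. The procedure was tested on simulated data without letter effects or differences in library scale, so that test does not bear on either.

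Alternatives were other pseudocounts and filters, equal totals, TMM factors, edgeR 4.0.16 and DESeq2 1.42.0 on recovered reads of 23 libraries (1 LPS library, letter A, was left out because its reads were not accepted as recovered), 2 groups only, blocks by letter and by letter pair, letter pairs alone, and leaving out letters or libraries; a fit on letters A to D was added after seeing the data. Libraries of the same letter had deviations in common: all 36 correlations of deviations from group means between them were over 0.1 (0.134 to 0.539). The letter that matched best in the other groups was the library's own in 18 of 24 libraries. The letter pair that matched best was its own in 24 of 24. The main fit used no block. Named are all 10 members and, from each pathway list and comparison, at most 3 called genes with the largest changes. The members and lists were chosen with earlier results of these data known, so they are descriptions. Protein sequences were not used here.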

Additional observations from a re-analysis of the deposited data

Results flagged for a closer look

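Of 40 groups of 6 values (10 genes in 4 groups), 6 had 1 library far from the others, with a gap to the nearest value above 0.625 of the group's whole range; chance gives about 1 in 20. Letter E gave 3 of them, all low: TNFAIP3 in DCVC at 197 (next value 280.1), TNIP1 in LPS at 40672 (next value 51737), and TNIP1 in DCVC_LPS at 20320 (next value 23380.5). Letter F gave the other 3, all high: TNIP3 in LPS at 1068 (next value 535), TRAF1 in DCVC_LPS at 41408 (next value 34264), and CYLD in DCVC_LPS at 4425 (next value 3922). The TNIP3 value bears on a call, since without that library the change in DCVC_LPS against LPS was -0.47 (limma adjusted p = 0.113).

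The response to LPS differed between cells with and without DCVC by the interaction test (limma) for 6 genes, all negative. Of all tested genes 22.0% were called positive and 23.7% negative. The log2 interactions were -4.02 for TNIP3, -1.02 for TRAF1, -0.96 for TNIP1, -0.84 for BIRC2, -0.78 for CYLD and -0.68 for TNIP2. TNIP3 had only 8 reads in Control, and its value was -2.64 with 5 added in place of 1. For TRAF1 the value within letters A and B was -0.30 (limma adjusted p = 0.0967).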

How the results depend on the processing

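Of 2240 recomputed member changes, 2169 kept direction and side of the threshold, 21 lost the call, 25 gained it and 25 changed sign; all 450 in LPS minus Control and all 450 in DCVC_LPS minus DCVC kept both. With equal totals, all genes raised were 3118 in LPS minus Control, 6412 in DCVC minus Control (2790 lowered), 7578 in DCVC_LPS minus LPS (3051 lowered), 2263 in DCVC_LPS minus DCVC (7322 lowered) and 4600 in the interaction. Members raised in DCVC minus Control were 4 (2 lowered) with equal totals, 2 with the replicate block, 2 with the letter pair block, 2 within letters C and D, 2 within E and F (3 lowered), and 1 to 2 with a letter or library left out; the replicate block changed no other member call than those of TNIP1 and TNIP2 there. Within letters E and F, which leave 8 libraries, all genes raised were 2294 in DCVC minus Control and 1281 in the interaction (1578 lowered). Within A and B 1 member, TNFAIP3, had a positive interaction. In DCVC minus Control the sign changed for TNIP1 (0.0792) and BIRC2 (0.15) with equal totals, BIRC2 within A and B (0.0192), TRAF1 within E and F (0.0467), and CYLD with equal totals (0.24), TMM factors (0.00895), edgeR (0.0102), letters C and D (0.0781) and letters A to D (0.0169), and from -0.0382 to 0.0199 with a letter or library left out. Interactions changed sign for TNFAIP3 within C and D (-0.17) and E and F (-0.0110), BIRC3 (0.37) and TRAF2 (0.0181) within A and B, and TRAF3 with equal totals (0.14), DESeq2 (0.00297), letters A and B (0.12) and letters A to D (0.0400), and from -0.13 to 0.0495 with a letter or library left out. None of these sign changes but those of BIRC2 and CYLD with equal totals passed the test, and the causes were not tested. Depth limits TNIP3 in Control, with 8 reads in 6 libraries.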
